A study of Mus musculus with 23 samples.

Results

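The transcripts described here are those of the nuclear genes for the mitochondrial respiratory chain and the ATP synthase. Of the 54354 genes in the count table, 98 rows were taken: those annotated as protein-coding whose symbol begins with Nduf, Uqcr, Cox4, Cox5, Cox6, Cox7, Cox8 or Atp5, together with Sdha, Sdhb, Sdhc, Sdhd and Cycs. This rule uses gene type and symbol and no measured value, although earlier results of these data were known when it was chosen. The 98 rows carry 97 symbols, because Atp5o stands on 2 rows, of which 1 has no count. By role they comprise 38 complex I subunits, 8 complex I assembly factors, 4 complex II subunits, 8 complex III genes, cytochrome c (Cycs), 21 complex IV genes and 18 ATP synthase genes. Ndufa4 and Ndufa4l2 were placed with complex IV, where the Ndufa4 protein acts in spite of its name, and Cox7a2l, a factor in the joining of complexes III and IV, was placed there by its symbol.

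RNA was sequenced in bulk from 23 mouse libraries labelled as colon, 12 of them made from the GFP-negative sort and 11 from the GFP-positive sort. Organoids described as Basp1-eGFP-DTR and AKP-tdT had been placed orthotopically in the mouse colon, and the primary tumours were dissociated and separated by fluorescence-activated cell sorting. Every library carries the genotype label Basp1-GFP, and the groups are labelled apart by GFP alone. Whether sorted cells were also gated on tdT is not stated, and markers of other cell types were present in both sorts. The extraction text names organoids as the source of the RNA and the design text names tumours, a difference that the labels do not settle. The strain and age of the host mice, whether animals were pooled and how many organoid lines were used could not be read from the labels. HFD stands in the title of the series while no label gives a diet, so it is not known whether diet differed among libraries or sets. Library names have 13 different starts. GFP-negative libraries 4 and 5 are named 8050 and 8045 and a single GFP-positive library 8045-8050, and these were merged into 1 identifier, which leaves 11 identifiers, 10 of them in both populations. In 3 libraries (GFP-positive 7 of identifier 61-1, and GFP-negative 9 and GFP-positive 8 of 40-1) the name adds a 2 whose meaning is not given, and each was counted as a separate sample, as its title has it. The names end in serial numbers that form 2 separate runs, called library set 1 (6 GFP-negative, 5 GFP-positive) and library set 2 (6 and 6) below. What the runs or the identifiers stand for is not stated, and no label ties a library to an animal of its own. The p-values below therefore rest on library-to-library spread, part of which may be technical.

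Depth was low and uneven, from 25458 to 2304316 counts in GFP-negative libraries (median 144334.5) and from 37125 to 4238877 in GFP-positive libraries (median 1418140), and 4 libraries held under 100000 counts. Basp1 itself had 0 to 83.8 CPM (the count scaled by the total of its library, median 27.7) in GFP-negative and 13.3 to 108 CPM (median 51.3) in GFP-positive libraries. The groups overlapped, and the log2 difference of 0.63 (SE 0.38) did not pass edgeR's quasi-likelihood test (adjusted p = 0.997). The 6 epithelial markers summed to 2042 to 6208 CPM over the 23 libraries, and none of them was at 0 in either population of either set. Library GFP-positive 3 stood apart, with 31830 CPM of 10 macrophage and monocyte markers against at most 1114 CPM in the other GFP-positive libraries. Mitochondrial ribosomal RNA took 320900 CPM (32.1% of the counts) in GFP-negative 4, 119700 in GFP-negative 5 and 90720 in GFP-positive 4, against 17590 to 49930 CPM elsewhere. These 3 libraries are the shallow ones of set 1 and make up identifier 8045-8050. In bulk RNA, fewer cells of a type and less RNA per cell cannot be told apart.

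The respiratory chain passes electrons from NADH, through complex I, and from succinate, through complex II, to ubiquinone. Complex III carries them on to cytochrome c, and complex IV passes them to oxygen. Proton pumping by complexes I, III and IV drives the ATP synthase. Except in complex II and cytochrome c, the nuclear subunits work beside subunits made from mitochondrial DNA. The intestinal epithelium uses this machinery heavily, and several complex IV subunits exist as a common form and a form restricted to muscle, testis or hypoxic and perivascular cells.

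The 98 genes together made up 2.18% to 4.11% of the counts of a library, and 93 of them had at least 1 count. The 5 genes with no count in any library were Cox8c, Cox7b2, Ndufb11b, Cox5b-ps (whose symbol marks a pseudogene although the table calls it protein-coding) and the second Atp5o row. Levels between genes were compared as CPM per kilobase of exon, given as the median over the 23 libraries. Among the highest, Atp5l, a small membrane subunit of the ATP synthase, stood at 1571 CPM per kilobase (987 to 1950 over libraries). Ndufa4 had 1552 and Cox4i1, a structural subunit of complex IV, had 1545 CPM per kilobase. Uqcr11, a small complex III subunit, had 1407 and Ndufa7 of complex I at 1264 CPM per kilobase. The ranges of these 5 genes over libraries overlapped. Within libraries Atp5l was above Ndufa7 in 21 of 23, but above Ndufa4 in 9 and above Cox4i1 in 11, so the order of the first 3 varied from library to library.

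Sdhb, the iron-sulfur subunit of complex II, had 256 CPM per kilobase, Sdhd, a membrane anchor, had 115, the flavoprotein gene Sdha had 54.2 and the other anchor Sdhc had 29.9. Cycs had 155 CPM per kilobase. Uqcrc1, a core protein of complex III, had 37.6, and Ndufs1, the largest iron-sulfur subunit of complex I, had 23.2 CPM per kilobase. Ndufaf8 had the highest level among the assembly factors, at 74.9 CPM per kilobase, and Ndufaf4 had the lowest among tested genes, at 10.4. The order depends on the gene models: with the median transcript length in place of merged exons, Atp5md led the ATP synthase genes at 1757, Ndufa6 led complex I at 1431 and Ndufa4 reached 2105 CPM per kilobase.

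The factors NRF1, ETS-family proteins such as GABP, and YY1 are known regulators of nuclear genes for mitochondria, and their motif letters were searched in the promoters. RefSeq promoter windows of 300 bases (250 before and 50 after the start, GRCm38.p6) were matched for 79 of the 98 rows, giving 84 windows. The NRF1 core GCGCATGC, counted on both strands, was in 13 of 84 windows (15.5%) against 2.71% of the 32851 windows of the table. YY1 letters AAGATGGCG were in 8 windows (9.52%) against 1.4%, and the ETS-type letters ACTTCCGG were in 5 (5.95%) against 3.89%. At least 1 of the 3 stood in 25 of the 84 windows (29.8%) against 7.57% of the table's windows. Members with the NRF1 core include Cycs, Sdhb, Uqcrc1, Cox6a1, Atp5l and Ndufa11, and those with the YY1 letters include Ndufa9, Ndufs7 and Atp5j2. A match is a stretch of letters and was not tested for binding.

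For each motif, the promoter stretch of 1 member that carries it is shown 5′ to 3′, from 170 bases before to 30 bases after the start, with matches in capitals. Uqcr11 lies at chr10:80406792-80406991 on the minus strand and holds an ETS-type match and an NRF1 core. Cox8a, the common form of a small complex IV subunit, lies at chr19:7217587-7217786 on the minus strand and shows an ETS-type match. Atp5j, a peripheral-stalk subunit of the ATP synthase, lies at chr16:84834947-84835146 on the minus strand and shows the YY1 letters.
Uqcr11: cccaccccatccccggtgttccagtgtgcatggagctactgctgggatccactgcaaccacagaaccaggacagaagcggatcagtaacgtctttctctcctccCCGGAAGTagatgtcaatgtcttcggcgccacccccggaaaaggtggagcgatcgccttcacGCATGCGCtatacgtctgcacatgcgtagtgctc
Cox8a: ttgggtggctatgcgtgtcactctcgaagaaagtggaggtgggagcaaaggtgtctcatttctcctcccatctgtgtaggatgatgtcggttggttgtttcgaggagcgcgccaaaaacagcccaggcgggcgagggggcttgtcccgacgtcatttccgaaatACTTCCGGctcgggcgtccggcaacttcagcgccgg
Atp5j: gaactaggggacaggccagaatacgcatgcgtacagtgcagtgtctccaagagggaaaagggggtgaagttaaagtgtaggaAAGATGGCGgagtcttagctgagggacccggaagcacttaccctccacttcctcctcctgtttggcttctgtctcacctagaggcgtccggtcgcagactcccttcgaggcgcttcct

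Between GFP-positive and GFP-negative cells over all 23 libraries, no respiratory chain gene passed edgeR's quasi-likelihood test. Of 85 genes with enough counts, 0 were called at an adjusted p under 0.05, beside 1 of 6621 genes in the fit (0.0151%). DESeq2 called 0 among the 93 members with any count, and how many of them it gave an adjusted p is not given here. At an unadjusted p under 0.05 there were 2 of 85 genes, Ndufab1 and Atp5e, both higher in GFP-positive cells, beside 4.95% of all tested genes (2.73% higher). That count was 0 without GFP-negative 10, GFP-negative 11 or GFP-positive 7, 1 without GFP-negative 2, 4 or 12 or GFP-positive 6, 8 or 9, and 4 without GFP-positive 4 or GFP-negative 8. The fitted log2 fold change (GFP-positive minus GFP-negative, as throughout) was above 0 for 52 of 85 genes (61.2%, against 58.5% of all genes), with a median of 0.05 against 0.07. With the RLE scaling the count above 0 was 37 of 85 (43.5%) and the median -0.03, so the sign of the median depends on the scaling. Leaving out GFP-positive 7 or GFP-positive 8 also turned the median, to -0.03 and -0.02.

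**Figure D1:**
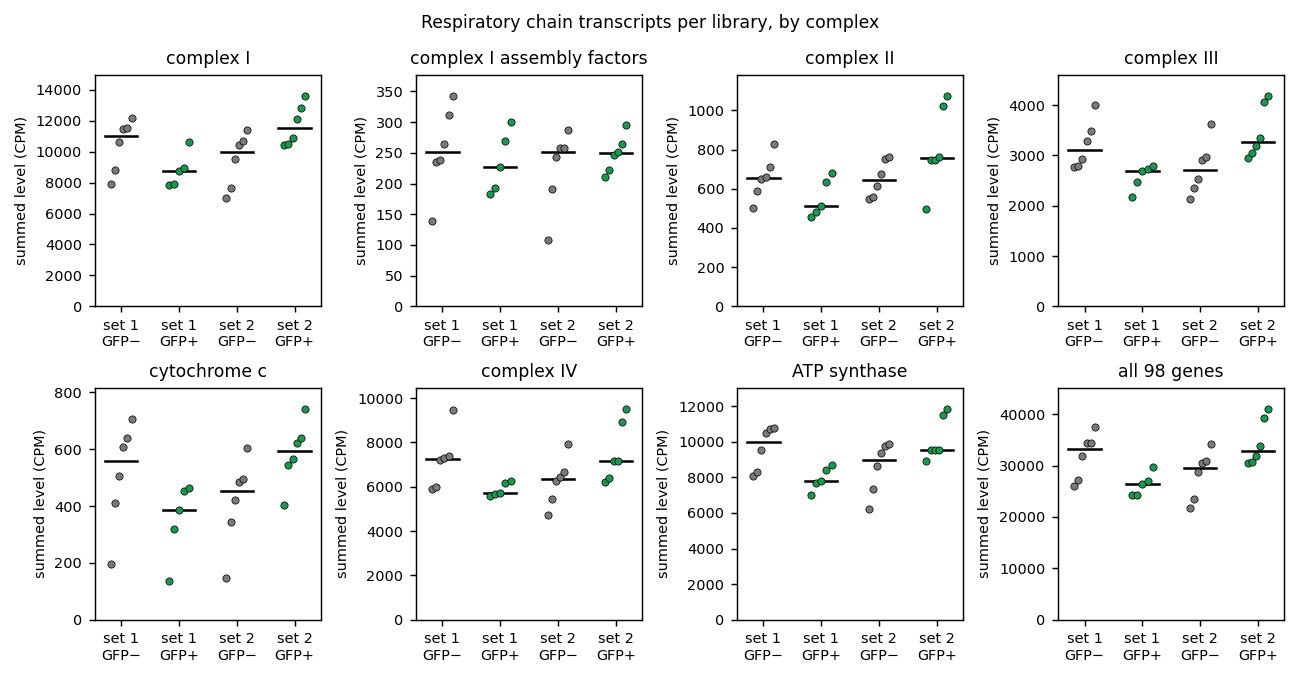
Summed level (CPM, vertical axis from 0) of the genes of each complex in every library, by library set and sorted population (GFP−, GFP-negative; GFP+, GFP-positive); each point is 1 library and each bar the group's median. In the last panel the 5 GFP-positive libraries of set 1 lie between 24220 and 29640 CPM and the 6 of set 2 between 30470 and 41050 CPM, while GFP-negative libraries of the sets overlap.

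Complex I feeds electrons from NADH into the chain. Over all libraries 24 of its 37 tested subunit genes were above 0 (median 0.09), and all 3 functional parts lay close to 0: the electron input module had a median of -0.006 (8 genes), the quinone-binding module 0.10 (8 genes) and the membrane arm 0.09 (20 genes). Ndufab1, the mitochondrial acyl carrier protein that is also a complex I subunit, had 17.3 to 152 CPM (median 119.6) in GFP-negative and 101 to 217 CPM (median 151) in GFP-positive libraries. The ranges overlapped, the GFP-positive level was the higher in 7 of 10 identifiers, and the log2 fold change was 0.52 (SE 0.23, edgeR p = 0.0294, adjusted p = 0.992). Ndufa10, a membrane-arm accessory subunit, had the lowest value of the complex at -0.18 (SE 0.24, adjusted p = 0.997). Among the 5 tested assembly factors, which help to build complex I, Ndufaf7 stood at 0.45 (SE 0.35) and Ndufaf4 at -0.44 (SE 0.32), both with an adjusted p of 0.997.

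Complex II oxidises succinate and is also an enzyme of the tricarboxylic acid cycle. Its 4 genes were measured at 0.18 (SE 0.22) for Sdha, -0.07 (SE 0.20) for Sdhb, 0.08 (SE 0.22) for Sdhc and 0.35 (SE 0.24) for Sdhd, each with an adjusted p of 0.997. In complex III, 6 of 8 genes were above 0 (median 0.08), from -0.11 (SE 0.18) for the hinge protein gene Uqcrh to 0.40 (SE 0.30) for Uqcrc1. Uqcrc1 was the higher in GFP-positive cells in 8 of 10 identifiers, yet its ranges of 0 to 106 and 27.7 to 216 CPM overlapped. Cycs, the mobile electron carrier, had 146 to 705 CPM (median 489) in GFP-negative and 135 to 742 CPM (median 464) in GFP-positive libraries, with a log2 fold change of 0.06 (95% interval -0.42 to 0.54).

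Complex IV had 6 of 13 tested genes above 0 (median -0.02) and the ATP synthase 10 of 17 (median 0.03). Atp5e, the epsilon subunit of the ATP synthase's catalytic head, had 416 to 818 CPM (median 588) in GFP-negative and 498 to 1238 CPM (median 719) in GFP-positive libraries. The groups overlapped, with the GFP-positive level higher in 8 of 10 identifiers and a log2 fold change of 0.34 (SE 0.16, edgeR p = 0.0331, adjusted p = 0.992). Atp5mpl, a small membrane protein of the synthase, had the lowest value there, -0.17 (SE 0.18, adjusted p = 0.997). Atp5g1, Atp5g2 and Atp5g3 encode the same mature c-ring protein, and their values of -0.13, -0.06 and -0.08 lay within their standard errors of 0.17, 0.16 and 0.18 of 0.

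The library sets gave opposite medians. In set 1 the log2 fold change was below 0 for 70 of 85 respiratory chain genes, beside 45.9% of all genes, with a median of -0.27 against 0.05. Without the 3 libraries high in mitochondrial ribosomal RNA the set 1 median was -0.15, with 17 of 87 genes above 0. In set 2 it was above 0 for 78 of 86, beside 56.1% of all genes, with a median of 0.27 against 0.07. Of the 85 genes tested in both, 65 were below 0 in set 1 and above 0 in set 2. These signs come from fits in which no respiratory chain gene was called: 0 of 85 in set 1 (0% of 5256 genes in the fit) and 0 of 86 in set 2 (1.28% of 6952 genes in the fit), by edgeR. DESeq2 called 0 members in set 1 and 1, Ndufa4l2, in set 2. Its share of calls over all genes is not given here.

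**Figure D2:**
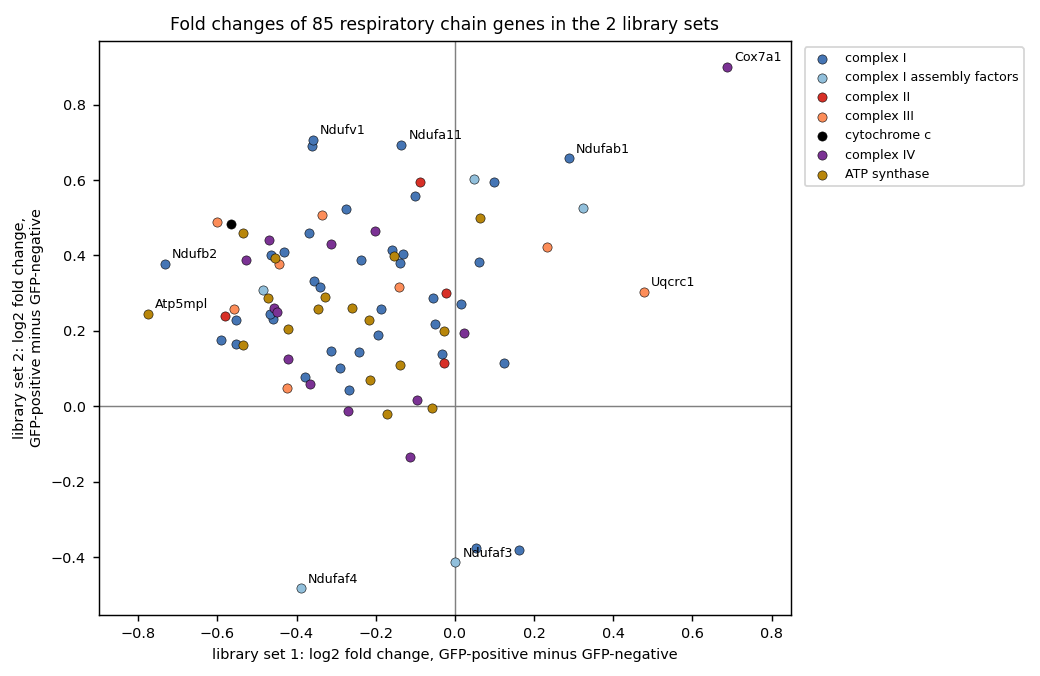
Log2 fold change (GFP-positive minus GFP-negative) of the 85 genes tested in both library sets, set 1 on the horizontal and set 2 on the vertical axis, coloured by complex, with lines at 0; each point is 1 gene. The upper left field holds 65 of the 85 genes, and Cox7a1 lies at the top right with 0.69 and 0.90.

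At an unadjusted p under 0.05, set 1 held 8 members (9.41%, beside 5.4% of all genes, 2.99% lower), all lower in GFP-positive cells. They were Atp5mpl (-0.78), Atp5md (-0.54), Atp5g1 (-0.54), Atp5j2 (-0.47), Cox6c (-0.53), Cox6b1 (-0.45), Uqcrb (-0.56) and Ndufs6 (-0.55), with adjusted p of 0.852 or more. Of these 8 genes, 4 encode parts of the ATP synthase, which holds 17 of the 85 members tested in set 1. Whether 4 is more than that share was not tested. Without GFP-negative 2 the count was 1, without GFP-negative 3 it was 4, without GFP-positive 2 it was 5, and without GFP-negative 4, GFP-positive 1 or GFP-positive 4 it was 3. Set 2 held 10 such members (11.6%, beside 6.88% of all genes, 2.34% higher), all higher in GFP-positive cells: Ndufa11 (0.69), Ndufa2 (0.52), Ndufs7 (0.69), Ndufab1 (0.66), Ndufa1 (0.59), Uqcr10 (0.51), Cox7a2 (0.44), Ndufa4 (0.43), Atp5e (0.50) and Atp5md (0.46), with adjusted p of 0.495 or more. The count was 3 without GFP-positive 7, 5 without GFP-positive 8, 6 without GFP-negative 10 and 18 without GFP-negative 8.

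The difference between the sets was then tested itself, as the interaction of population and set (set 2 effect minus set 1 effect). By edgeR, 0 of 85 members were called (0% of 6621 genes in the fit), and DESeq2 also called 0. At an unadjusted p under 0.05 there were 23 members (27.1%, beside 6.4% of all genes, 2.78% higher), every one positive. The interaction was above 0 for 78 of 85 members, beside 49.2% of all genes, and the median over members was 0.50 against -0.01 over all genes. The count was 14 without GFP-positive 1, 15 without GFP-positive 4 and 15 without the 4 shallow libraries, where the median was again 0.50. By complex the median was 0.50 for complex I, 0.48 for complex II, 0.60 for complex III, 0.50 for complex IV and 0.53 for the ATP synthase, whose 17 genes were all above 0. For the 5 tested assembly factors it was 0.15, with 3 above 0. Ndufa10 of complex I stood at -0.48 (SE 0.49, adjusted p = 0.931). Under the RLE scaling the member median was 0.37 and that of all genes -0.16.

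Atp5md, a small membrane subunit of the ATP synthase, had the smallest interaction p among the members and was singled out for it. In set 1 its GFP-negative levels were 560 to 929 CPM (median 691), and its GFP-positive levels were 481, 521, 448, 566 and 508 CPM. The groups touched only where GFP-positive 4 exceeded GFP-negative 1. In set 2 GFP-negative libraries held 301 to 640 CPM (median 579) and GFP-positive libraries 648 to 880 CPM (median 740), with no overlap. The log2 fold changes were -0.54 (SE 0.20) and 0.46 (SE 0.21), and the interaction was 0.96 (SE 0.28, edgeR p = 0.0016, adjusted p = 0.469).

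Cox7a2, the common form of a complex IV subunit, had 450, 476, 505, 377 and 477 CPM in GFP-positive and 364 to 1100 CPM (median 644) in GFP-negative libraries of set 1. In set 2 it had 662 to 927 CPM (median 786) in GFP-positive against 491 to 717 CPM (median 586) in GFP-negative libraries. Both pairs of groups overlapped, and the interaction was 0.87 (SE 0.30, adjusted p = 0.601). Cycs had -0.56 (SE 0.32) in set 1, 0.48 (SE 0.26) in set 2 and an interaction of 1.00 (95% interval 0.12 to 1.89, adjusted p = 0.733).

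The level summed over all members separated the sets in the GFP-positive population. Added up over the 98 genes, GFP-positive libraries held 24360, 26980, 26330, 24220 and 29640 CPM in set 1 and 30470 to 41050 CPM (median 32800) in set 2, with no overlap. By complex, the sums separated for complex III (at most 2792 CPM in set 1, at least 2942 in set 2) and the ATP synthase (8689 and 8906). Those of complexes I, II and IV, cytochrome c and the assembly factors overlapped. GFP-negative libraries held 25950 to 37470 CPM (median 33160) in set 1 and 21810 to 34260 CPM (median 29630) in set 2, which overlap. Gene by gene, in a comparison added after these levels were seen, the log2 difference (set 2 minus set 1) was above 0 for 81 of 87 members, beside 51.2% of all genes, with a median of 0.47 against 0.01. Of the 87, 0 were called by edgeR, beside 0.0221% of 9032 genes in the fit, and 0 by DESeq2, and 29 had an unadjusted p under 0.05 (33.3%, beside 6.38% of all genes, 3.33% higher), all higher in set 2. That count was 18 without GFP-positive 8, 19 without GFP-positive 7 and 44 without GFP-positive 9. The cytosolic ribosomal protein genes separated the same GFP-positive libraries, with sums of 102400 to 124900 CPM in set 1 and 126600 to 165000 CPM in set 2, and 80 of 82 of them were above 0 (median 0.34, 25.6% at an unadjusted p under 0.05). Of other genes under 1 kilobase of exon, 73.3% were above 0, with a median of 0.27. The part of these in the members' difference was not tested. This comparison shares its libraries with the fits within each set. In GFP-negative libraries 21 of 76 members were above 0 (beside 51.4% of all genes), the median was -0.11, and edgeR called 0 (0.0954% of 2096 genes in the fit), with 0 at an unadjusted p under 0.05 (10.7% of all genes).

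Members without overlap between the GFP-positive libraries of the sets include Cox7a2 (377 to 505 CPM in set 1, 662 to 927 in set 2), for which the log2 difference was 0.89 (SE 0.22, adjusted p = 0.509). Uqcr10, a small complex III subunit, had 403 to 547 CPM in set 1 and 606 to 917 CPM in set 2, a log2 difference of 0.74 (SE 0.22, adjusted p = 0.750). Both were named after their values were seen. Cox8a, the common form of another complex IV subunit, went the other way, with 539 to 979 CPM in set 1, 331 to 950 CPM in set 2 and a log2 difference of -0.27 (SE 0.28).

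Of the cytosolic ribosomal protein genes, 75 of 81 were below 0 in set 1 (median -0.33) and 61 of 82 above 0 in set 2 (median 0.13), with an interaction median of 0.40. Genes outside the set with under 1 kilobase of exon had medians of -0.16 in set 1 and 0.13 in set 2, and those with 4 kilobases or more had 0.17 and -0.02. The members' medians were -0.26 and 0.32 in the class under 1 kilobase (42 genes) and -0.34 and 0.26 between 2 and 4 kilobases (11 genes). In set 2 the 8 fibroblast markers summed to 1710 to 12320 CPM in GFP-negative and 239 to 1536 CPM in GFP-positive libraries, and the 10 macrophage markers to 2382 to 6463 and 131 to 839 CPM. In set 1 the fibroblast sums were 172 to 3465 and 0 to 3059 CPM, and the macrophage sums 411 to 6826 and 204 to 31830 CPM. None of these markers was without counts in any of the 4 groups of libraries. Without GFP-positive 3, the library with the high macrophage sum, the members' median was -0.31 in set 1 and the interaction median 0.58. The part of exon length, of the other cell types and of depth in the set difference was not tested.

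Within identifiers the members' median difference was below 0 in 3 of the 4 identifiers confined to set 1 (-0.31 for 3034, -0.14 for 7421 and -0.71 for 8045-8050, a mean of 2 GFP-negative libraries against 1 GFP-positive, all 3 high in mitochondrial ribosomal RNA) and 0.03 in the fourth, 7789-7795. Of the 5 identifiers confined to set 2, 4 were above 0, at 0.44 for 40-1, 0.38 for 7907, 0.60 for 7914 and 0.28 for 7968, while 5780 stood at -0.03. In identifier 40-1 the GFP-positive level was the higher for 83 of 85 members, and in 3034 for 16 of 85. The median over all tested genes was also above 0 in 3 of these 4, at 0.25 in 7907, 0.22 in 7914 and 0.48 in 7968, where it was above that of the members. In 40-1 it was -0.005. The GFP-negative libraries of 7907, 7914 and 7968 held 116211, 101996 and 69580 counts. Identifier 61-1 alone spans the sets: its GFP-positive library of set 1 lay below its GFP-negative library of set 2 (median -0.53, 11 of 85 members higher), and its GFP-positive library of set 2 lay above it (0.28, 67 of 85). The GFP-positive library of set 2 exceeded that of set 1 for 80 of 85 members, with a median of 0.78 against -0.06 over all genes.

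**Figure D3:**
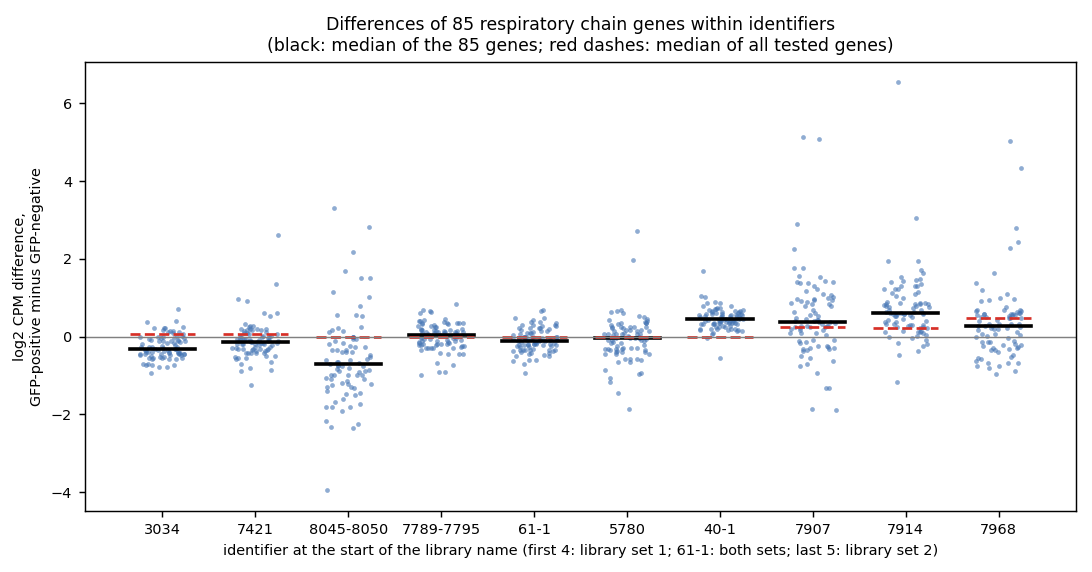
Log2 CPM difference, GFP-positive minus GFP-negative, of the 85 tested genes within each of the 10 identifiers that hold both populations; each point is 1 gene, black bars are the members' medians and red dashes the medians of all tested genes. In identifier 40-1 the members' median is 0.44 while that of all genes is near 0, and in 8045-8050, with libraries of low depth, the points are widely scattered around -0.71.

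Several complex IV genes exist as a common and a restricted form. Cox7a1, the heart and skeletal muscle form, lies on chromosome 7 (30184144 to 30186078, plus strand, mm10) and had the largest log2 fold change among tested members over all libraries, 0.86 (SE 0.47, edgeR p = 0.0745, adjusted p = 0.996). It had 0 to 68.4 CPM (median 27.4) in GFP-negative and 4.66 to 132 CPM (median 49.4) in GFP-positive libraries, which overlap. The high values came from GFP-positive 7 and 8, with 132 and 117 CPM, and GFP-positive 4, with 80.8 CPM on few counts. The GFP-positive level was the higher in 8 of 10 identifiers, and both sets lay above 0 (0.69, SE 0.58, and 0.90, SE 0.61). The 4 skeletal or cardiac muscle markers Ckm, Acta1, Myh4 and Mb summed to at most 84.6 CPM in any library, and Myh4 had no count in any group. Their highest sums, 84.6 and 60.7 CPM, were in GFP-positive 7 and 8, the libraries with the highest Cox7a1, and their part in the Cox7a1 values was not tested. The other form, Cox7a2, had 0.11 (SE 0.18) over all libraries and Cox7a2l 0.13 (SE 0.17).

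Ndufa4l2, the paralogue of Ndufa4 known from hypoxic and perivascular cells, lies on chromosome 10 (127514967 to 127517154, plus strand, mm10) and was too low for the main test. In set 2 it had 5.67, 5.80, 15.1, 17.2, 19.6 and 0 CPM in the GFP-negative libraries, the last being GFP-negative 12, where a count of 0 allows up to 43.1 CPM. Of the 6 GFP-positive libraries 1, GFP-positive 8, had counts (1.54 CPM), and the zeros of the others allow up to 1.77 to 9.22 CPM. Pooled over libraries, 30 counts made 10.1 CPM (exact 95% Poisson interval 6.79 to 14.4) in GFP-negative and 6 counts made 0.679 CPM (0.249 to 1.48) in GFP-positive cells, intervals that cover counting error only. Without the filter on low counts, edgeR called it lower in GFP-positive cells of set 2 (-3.97, adjusted p = 0.0353), and so did DESeq2 (-4.42, adjusted p = 0.0201), making it the sole member called in any fit. The shares of all genes called in these 2 fits are not given here. In set 1 the order was the other way, with 6 counts (1.94 CPM) in GFP-negative and 45 counts (4.5 CPM) in GFP-positive libraries, 42 of them in GFP-positive 1.

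The 5 smooth muscle and pericyte markers differed between the groups of set 2 in the same direction as Ndufa4l2. Of the 30 GFP-negative counts of Ndufa4l2 in set 2, 17 were in GFP-negative 9, which had the highest marker sum, 643 CPM. GFP-negative 11 had the highest Ndufa4l2 level of set 2, 19.6 CPM, and the lowest marker sum of its group, 176 CPM. That level rests on 2 counts, in a library where a count of 0 allows up to 29.4 CPM. The counts are too few for a comparison library by library. In set 2 the markers summed to 176 to 643 CPM in GFP-negative and 17.5 to 150 CPM in GFP-positive libraries. In set 1 their highest GFP-positive sum, 268 CPM, was in GFP-positive 1. The fibroblast markers of set 2 separated in the same way. None of these markers was without counts in a group, and their part in the Ndufa4l2 difference was not tested. Ndufa4 itself, at 599 to 1474 CPM over GFP-positive and 647 to 1400 CPM over GFP-negative libraries, had 0.14 (SE 0.16, adjusted p = 0.997).

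**Figure D4:**
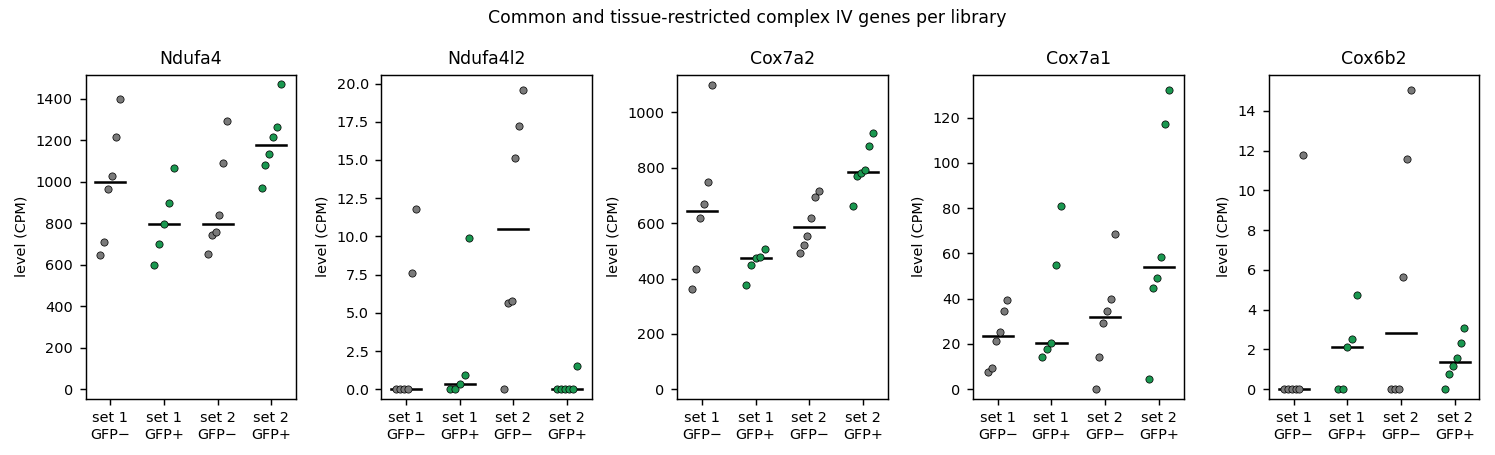
Level (CPM, own scale in each panel) of Ndufa4 and its paralogue Ndufa4l2, the common Cox7a2 and muscle Cox7a1, and the testis form Cox6b2 in every library, by library set and population; each point is 1 library and each bar the median. Ndufa4l2 reaches 19.6 CPM in GFP-negative libraries of set 2 and at most 1.54 CPM in the GFP-positive ones, and Cox7a1 is highest in 2 GFP-positive libraries of set 2.

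The remaining restricted forms were near the limit of detection. Cox6b2, the testis form, had 30 counts in GFP-negative (10.1 CPM, 6.79 to 14.4) and 9 in GFP-positive libraries of set 2 (1.02 CPM, with an upper bound of 1.94), and 5 against 21 counts in set 1, where depth was far greater in the GFP-positive libraries. Its GFP-negative counts came from 4 of 12 libraries, and it was not called by any fit. Cox4i2, the hypoxia-linked lung form, had 22 counts in all, Cox6a2 had 10 and Cox8b, both muscle forms, had 9. Their common partners Cox4i1, Cox6a1, Cox6b1 and Cox8a were detected in all 23 libraries with log2 fold changes of 0.17 (SE 0.16), -0.11 (SE 0.18), -0.02 (SE 0.16) and -0.12 (SE 0.17). Cox7b had -0.04 (SE 0.18) and its testis partner Cox7b2 no count. Assembly factors Ndufaf1, Ndufaf5 and Ndufaf6 also stayed below the filter, with 281, 323 and 129 counts in all.

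The biological coefficient of variation, edgeR's estimate of the spread between libraries beyond counting error, had a median of 0.346 over the 85 members (0.308 to 0.711) and 0.440 over all tested genes. At an average log2 CPM of 8 or more the medians were 0.340 for 51 members and 0.350 for 573 other genes. Below 8 they were 0.384 for 34 members and 0.448 for 5963 other genes. Atp5g2 had the lowest value and Cox7a1 the highest, followed by Ndufaf7 at 0.450.

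**Figure D5:**
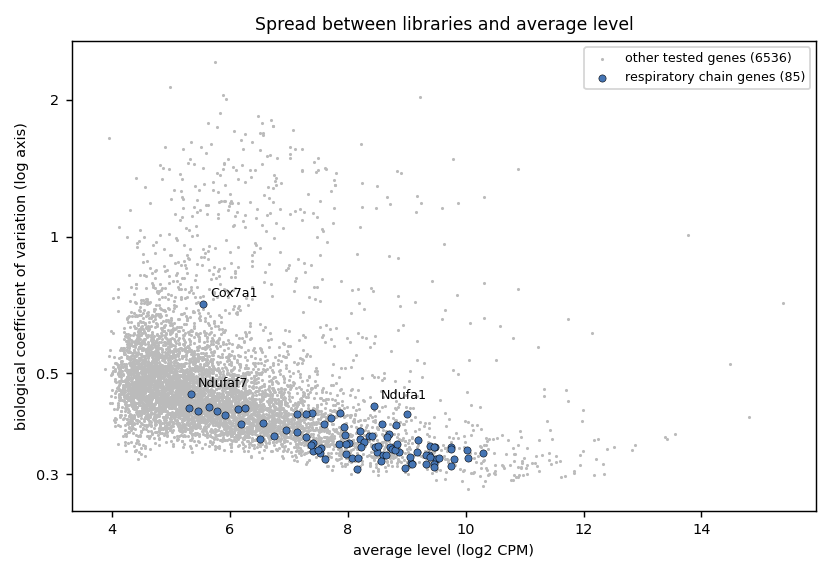
Biological coefficient of variation (log axis) against average level (log2 CPM) of the 6621 tested genes, with the 85 respiratory chain genes in blue; each point is 1 gene. The members form a narrow band with a median of 0.346, and Cox7a1 stands above it at 0.711.

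Genes of neighbouring pathways were counted in the same fits. Among 27 tested subunits and assembly factors outside the symbol rule, 15 were above 0 over all libraries (median 0.04) and 0 were called. Of the 13 protein-coding transcripts of the mitochondrial genome, which supply the core of complexes I, III, IV and the ATP synthase, 11 were below 0 (median -0.17), 12 in set 1 and 6 in set 2. Of the tricarboxylic acid cycle genes, 13 of 17 were above 0 (median 0.10), and 16 of 18 in set 2 (median 0.32), led by Dld at 0.98 (SE 0.37, adjusted p = 0.398), the dehydrogenase subunit shared by several cycle complexes. Of the biogenesis regulators, 7 of 7 tested were above 0 (median 0.25), among them Myc at 0.57 (SE 0.32), Tfam, the mitochondrial DNA packaging factor, at 0.39 (SE 0.40) and Nrf1 at 0.25 (SE 0.43), with 0 called. The carriers and structural genes of the inner membrane had 12 of 16 above 0 (median 0.15). The interaction of population and set had a median of 0.50 over the respiratory chain genes. It was 0.46 for the subunits and assembly factors outside the rule (18 of 27 above 0) and 0.44 for the cycle genes (15 of 17). For the mitochondrial genome transcripts it was 0.35 (12 of 13), for the regulators 0.54 (5 of 7) and for the inner membrane genes 0.003 (8 of 16).

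Glycolysis makes ATP outside mitochondria. Over all libraries 14 of 15 genes were below 0 (median -0.33), 6 of them at an unadjusted p under 0.05 (40%, beside 2.22% of all genes lower at that p), and 0 were called. Set 1 held 13 of 15 below 0 (median -0.56), with Ldha, lactate dehydrogenase, at -0.97 (SE 0.20, adjusted p = 0.142) and Pgk1 at -1.23 (SE 0.28, adjusted p = 0.243). In set 2, 8 of 15 were below 0 (median -0.06). Beside these, the medians of the respiratory chain genes were -0.27 in set 1 and 0.27 in set 2. The interaction median was 0.46 for the glycolysis genes (12 of 15 above 0) and 0.50 for the respiratory chain genes. Of the 15 glycolysis genes, 5 had an unadjusted edgeR p under 0.05 for the interaction (33.3%, beside 6.4% of all genes), all positive.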

How the data were processed

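Expected counts per gene were deposited by the authors and were already whole numbers. They were made with Salmon 1.3.0 on mm10, per the submitters' processing notes, from poly(A)-selected directional libraries, per the labels' protocols. The annotation is not given in the sources used here. Reads that match more than 1 row (Atp5o on 2 rows, or any stretch shared by Atp5g1 to Atp5g3) may be given to 1 row or split between rows. All 23 columns were matched to samples by name.

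Genes were filtered with filterByExpr (minimum count 10), scaled by TMM and tested with edgeR 4.0.16 (R 4.3.3, quasi-likelihood, robust), over all libraries, within each library set and for the interaction. Benjamini-Hochberg adjustment covered every tested gene, with a threshold of 0.05. Standard errors follow from the fitted value and its F statistic. CPM values are counts over the library total; log2 CPM within identifiers used a prior count of 2. Exon lengths came from GENCODE M21, promoters from RefSeq. Counts were checked for repeated libraries: in 121 pairs within a group the chi-square per degree of freedom was at least 2.83. The scripts' tests were tested on simulated data. Depth limits each value: 3 counts were taken as the most that a count of 0 allows.

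Named genes are members called in any fit, per complex the tested member with the highest level per kilobase and those with the highest and lowest log2 fold change, Sdha to Sdhd, Cycs, and paralogues and tissue forms; others are said to be chosen from their values or belong to counted groups. The members and lists were chosen with earlier results of these data known. Alternatives were RLE scaling, no filter, DESeq2 1.42.0, replicate blocks, library set as a term, and fits without shallow or single libraries; those for the interaction, the set comparison of GFP-positive libraries, shallow libraries within a set and transcript lengths were added after the data were seen. The values of 1 member are not reported here.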

Additional observations from a re-analysis of the deposited data

Results flagged for a closer look

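In 12 cases 1 library's level lay apart from the rest of its population and library set, its gap to the nearest other library being a larger share of the group's range than the 95% limit for such a gap. In all 148 groups were looked at, and chance alone gives about 1 in 20, or 7.4. GFP-positive 4 (37125 counts) was low for Atp5mpl (161.6 CPM, next 290.6), Sdha (80.81, next 147.6) and Ndufaf4 (0, next 32.32) and high for Uqcrc1 (215.5, next 86.11). GFP-negative 5 (25458 counts) was high for Cox8a (1139 CPM, next 792) and Ndufaf8 (157.1, next 78.55) and at 0 CPM for Ndufaf7 (next 25.42). A count of 0 allows up to 80.8 CPM in GFP-positive 4 and 117.8 CPM in GFP-negative 5. These bounds lie above the highest Ndufaf4 (43.8 CPM) and Ndufaf7 (40.0 CPM) levels of their groups. Sdha in GFP-positive 4 rested on 3 counts and Ndufaf8 in GFP-negative 5 on 4. GFP-negative 11 (101996 counts) was low for Cox6b1 (539.2 CPM, next 778.4) and Cox8a (431.4, next 623.2) and high for Ndufa10 (313.7, next 129.3). GFP-negative 10 (116211 counts) was high for Ndufaf4 (137.7 CPM, next 44.07). GFP-positive 9, with 857615 counts, was low for Cox7a2l (236.7 CPM, next 390.5). The other 11 cases all fall in libraries of 116211 counts or fewer.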

How the results depend on the processing

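No respiratory chain gene was called over all libraries, in set 1, for the interaction or between the GFP-positive libraries of the sets under any alternative run, including each fit without 1 library. In set 2 the count of called members was 1 without the filter and 1 with DESeq2, Ndufa4l2 in both. The median log2 fold change over all libraries was -0.03 with RLE scaling and -0.01 with DESeq2, and 0.11 without the 4 libraries under 100000 counts. The share of members above 0 was 61.2% as reported, 43.5% with RLE, 39.8% with DESeq2, 79.6% without the filter and 78.2% without the shallow libraries. Dropping the filter moved the median of all genes to 0.17 and that of the members to 0.16. Leaving out 1 library gave medians of -0.03 to 0.11 over all libraries, -0.31 to -0.18 in set 1, 0.22 to 0.39 in set 2, 0.44 to 0.63 for the interaction and 0.39 to 0.55 between the GFP-positive libraries, and counts of called members of 0 throughout.

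Under RLE the count of members above 0 over all libraries went from 52 to 37 of 85, so more members changed sign than the named genes given here, none of which was called. With RLE, Uqcr11 was -0.0626 and Cycs -0.0127, and with DESeq2 Uqcr11 was -0.0316, Cycs -0.007 and Sdhc -0.0208. Without the filter, Sdhb was 0.0571, Uqcrh 0.008, Atp5g3 0.0275, Cox7b 0.0664, Cox6b1 0.10, Cox6a1 0.0159 and Atp5g2 0.041. Without the shallow libraries, Ndufaf8 was 0.0398, Cox8a 0.0048, Atp5mpl 0.0353, Atp5g1 0.0452, Cox7b 0.13, Cox6b1 0.0902 and Atp5g2 0.0077. The cause was not tested.

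A replicate block changed no call. With the identifier as the block the median over all libraries was 0.04 with 0 members called, -0.23 in set 1 and 0.33 in set 2, and with the title number as the block it was 0.04. Ndufaf8 became 0.0808 and 0.0945 under these blocks. The count of members at an unadjusted p under 0.05 depended on the setting. In set 1 it was 8 as reported, 1 with the identifier block, 0 without the filter, 3 without the shallow libraries, 5 with RLE and 4 with DESeq2. In set 2 it was 10 as reported, 22 with the block, 26 without the filter, 9 without the shallow libraries, 8 with RLE and 10 with DESeq2. For the interaction it was 23 as reported, 40 with the block, 21 without the filter, 15 without the shallow libraries, 16 with RLE and 16 with DESeq2. The shares of all genes at that p under these alternatives are not given here. Whether the identifiers pair libraries was not settled. Deviations of libraries with the same identifier correlated at -0.224 to 0.404 over 12 pairs, and those with the same title number at -0.171 to 0.404 over 11. For 4 of the 11 GFP-positive libraries, the GFP-negative library with the highest correlation had the same identifier, and for 1 it had the same title number. The number that chance would give was not computed, and the main fits use no block.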
